A study of Homo sapiens with 135 samples.

Results

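The regions described here are the day 4 peaks of a single TET protein in H9 cells, an established human embryonic stem cell line, carried towards the neural lineage in the presence of DMSO. A region was kept when it came from the day 4 DMSO peak list of TET1, TET2 or TET3 and shared no base with a peak of the other 4 day 4 DMSO lists (CTCF, MBD3 and the other TET proteins). This gave 19279 TET1-only regions of the 45019 in the TET1 list, 12599 TET2-only regions of 36633 and 9584 TET3-only regions of 33121. Together the 3 sets held 41462 regions, of 833373 in all 36 lists of the series. The members were chosen by the peak calls of these 5 lists, so any value from those lists is given as a description with no test.

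The TET proteins are dioxygenases that oxidise 5-methylcytosine to 5-hydroxymethylcytosine and further oxidised forms, a route to DNA demethylation. TET1 and TET3 carry a CXXC domain that binds CpG-rich DNA, whereas TET2 lacks one. TET1 is abundant in pluripotent cells, and TET3 is known for roles in the zygote and in neural progenitors. MBD3 is a subunit of the NuRD remodelling and deacetylase complex, and CTCF is a zinc finger protein that anchors the loops of chromatin.

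Chromatin immunoprecipitation sequencing was carried out on days 0, 4 and 9 of neural induction, in untreated cells (WT, profiled for CTCF and MBD3 only), in cells given DMSO, the usual solvent control, and in cells given BPK25 at 20 µM. BPK25 is a cysteine-reactive compound known to lower NuRD subunits. The 135 samples formed 45 groups of 3 replicates, 9 of them inputs, and the replicates are not stated to be separate cultures. Each of the 36 lists was called on 3 pooled replicates, so a list is 1 value with no replicate error, and the Wilson 95% intervals given for shares cover counting error only. The antibodies for TET2 and TET3 are not given in the sources used here, and how far each antibody separates the 3 proteins was not tested. The lists held between 321 and 84203 regions and state no depth, so the 3 sets are compared within a list and not between lists. Coordinates are of build hg19, whose gene annotation and sequence were not used here.

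At day 4 the 3 TET lists overlapped each other broadly, and the single-TET regions were what remained. Of the TET1 regions 36.3% overlapped a TET2 peak, 35.5% a TET3 peak, 35.5% an MBD3 peak and 12.2% a CTCF peak, and 42.8% overlapped none of these. Of the TET2 regions 44.4% overlapped TET1 and 41.2% overlapped TET3, and 34.4% were TET2-only. Of the TET3 regions 47.6% overlapped TET1 and 45.2% overlapped TET2, and 28.9% were TET3-only. The longest list had the largest share of single-TET regions and the shortest the smallest. With the 3 lists taken at equal length by −log10 q, the TET1-only set held 12196 regions in place of 19279.

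The members were the weaker peaks of their lists by the authors' fold enrichment over local background and by −log10 q. The median fold of TET1-only regions was 3.89, against 4.52 for TET1 regions shared with another antibody, and their median −log10 q was 2.43 against 3.50. TET2-only regions had a median fold of 3.96 against 4.46 and a median −log10 q of 2.09 against 3.28. For TET3-only regions the medians were 3.83 against 4.38 in fold and 2.59 against 3.60 in −log10 q. Members were also narrower, with median widths of 193, 197 and 208 bp against 266, 271 and 289 bp for shared TET1, TET2 and TET3 regions. More than 1 summit was called in 0.877%, 0.222% and 0.678% of members, against 7.40%, 6.69% and 10.9% of shared regions.

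The strongest peaks of a list were seldom single-TET. Of TET1 regions with a −log10 q between 1.3 and 2, 62.7% were TET1-only, and of those at 10 or above 4.95% were. The same shares ran from 52.7% to 1.78% for TET2 and from 47.1% to 2.12% for TET3. A −log10 q of at least 5 was reached by 1101 TET1-only, 488 TET2-only and 711 TET3-only members.

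The number of fragments over each summit, recovered from the fold and the p-value for regions with a −log10 p of at most 12, was small. The regions above that limit were 1915 of TET1, 1397 of TET2 and 1560 of TET3, of which 124, 40 and 41 were members. The median was 8 fragments in TET1-only and TET2-only members and 10 in TET3-only members, against 9, 9 and 12 in shared regions, and no member rested on fewer than 6, 6 and 8. In the recovered regions of the TET2 and TET3 lists the single-TET share was lower at high fragment numbers, from 52.9% at 6 to 7 fragments to 9.20% at 30 or more for TET2, and from 46.9% at 8 to 9 fragments to 6.74% for TET3. The TET1 list turned back up: the TET1-only share was 61.7% at 6 to 7 fragments, 24.3% at 12 to 14, 47.8% at 20 to 29 and 57.7% (50.7 to 64.5) at 30 or more, the last over 194 regions. With 30 or more fragments a region is below the limit on −log10 p only where its local background is also high. The upturn therefore describes TET1 regions of many fragments and high local background, and of the 1915 regions above the limit 6.48% were TET1-only (5.46 to 7.67).

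**Figure D1:**
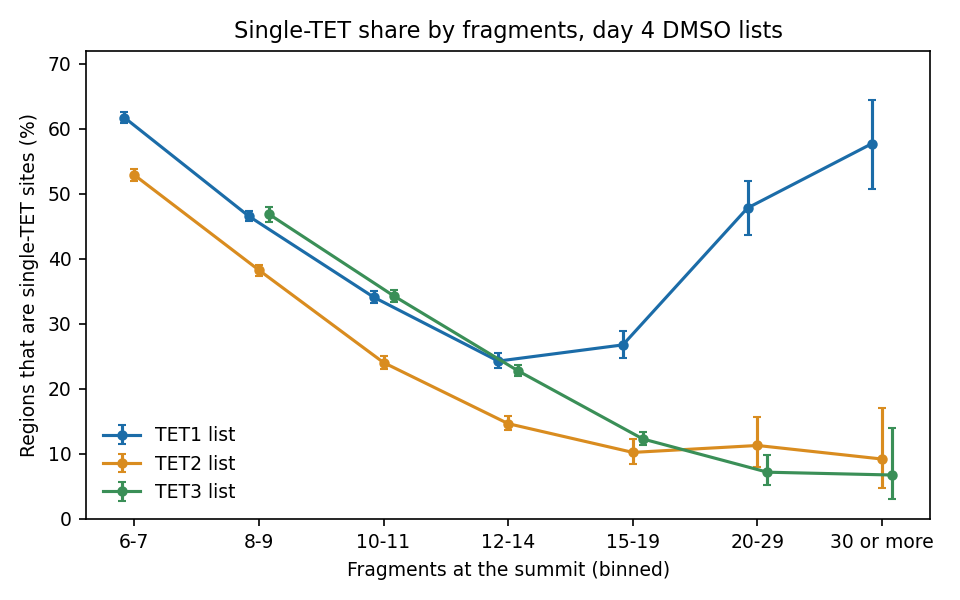
Percentage of regions of each day 4 DMSO TET list that are single-TET (y axis) by the binned number of fragments at the summit (x axis), one line per list, bars showing Wilson 95% intervals of counting error, over regions with a −log10 p of at most 12. The TET2 and TET3 lines end at 9.20% and 6.74%, whereas the TET1 line passes 24.3% at 12 to 14 fragments and ends at 57.7% of 194 regions, with 1915 TET1 regions above the limit not plotted.

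Many members lay close to a peak of another antibody without touching it. Another day 4 DMSO peak stood within 1 kb of 32.7% of TET1-only, 39.1% of TET2-only and 45.4% of TET3-only members, and within 100 bp of 4.38%, 5.78% and 7.16%. The median gap was 2855, 1864 and 1301.5 bp. MBD3, whose day 4 DMSO list is the longest of the 5, had a peak within 1 kb of 18.0%, 21.2% and 24.5% of the members, and CTCF of 5.86%, 7.37% and 9.21%. Single-TET sites of different proteins also neighboured each other: 6.12% of TET1-only members had a TET2-only member within 1 kb and 5.22% had a TET3-only member. Moved copies were not counted for these distances, so closeness beyond the density of peaks was not tested.

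The edge of the overlap rule separated regions of similar strength. A gap of at most 10 bp kept 108 TET1-only, 94 TET2-only and 95 TET3-only members in their sets, with median −log10 q of 2.32, 2.09 and 2.31. An overlap of at most 10 bp with 1 antibody kept 102, 106 and 87 regions out, with medians of 2.09, 2.09 and 2.31.

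Followed over the 31 lists that the rule did not use, a majority of each set was seen again. A peak in at least 1 of them was present at 55.8% of TET1-only regions (95% interval 55.1 to 56.5), beside 75.7% of all TET1 regions. It was present at 52.3% (51.4 to 53.1) of TET2-only regions beside 77.7% of all TET2 regions, and 54.9% (53.9 to 55.9) of TET3-only regions beside 81% of all TET3 regions. The same members moved by 10 kb met a peak in 15.8%, 15.5% and 15.9% of cases. Every set thus lay well above its moved copy and below the whole of its own list.

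Recurrence was mostly in few lists. Of TET1-only regions 24.3% had a peak in exactly 1 other list and 3.15% in 8 or more; for TET2-only these were 25.1% and 0.714%, and for TET3-only 27.4% and 0.344%. The corresponding shares of all regions were 18.4%, 17.7% and 17.7% with exactly 1 list, and 9.07%, 9.54% and 9.68% with 8 or more lists. The 608 TET1-only members with 8 or more lists had a median of 20 fragments, against 8 in the 8523 members with none. For the 90 such TET2-only and 33 such TET3-only members the medians were 14.5 and 13 fragments. The regions of greatest recurrence were therefore a minority with more fragments, larger in the TET1-only set. Their median fold was 2.97, 3.03 and 3.84 in the 3 sets, against 3.89, 3.96 and 3.83 in members found in no other list.

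**Figure D2:**
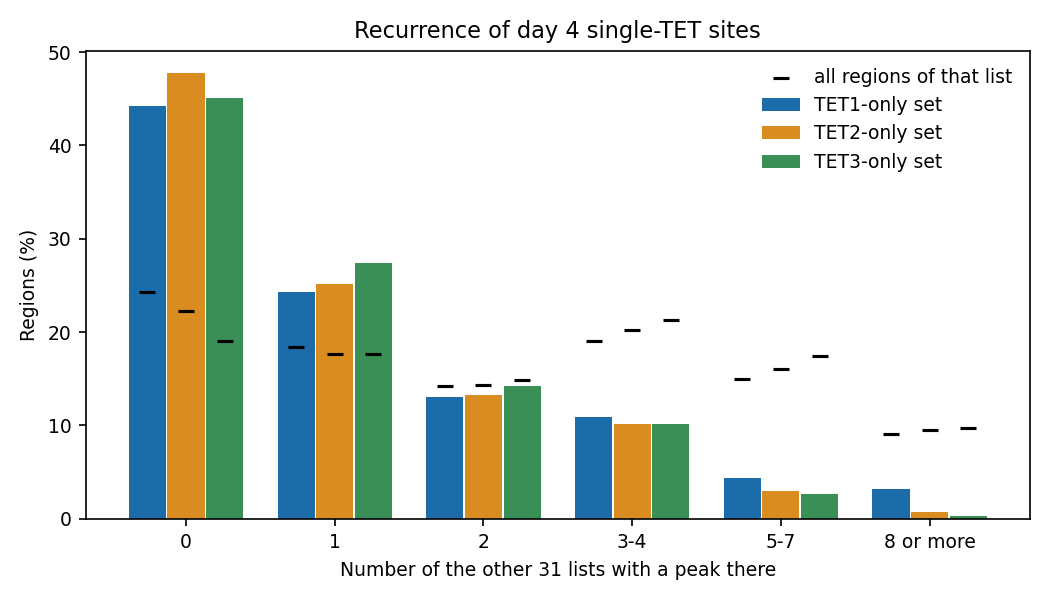
Percentage of each single-TET set (bars, y axis) by how many of the 31 lists not used by the rule have a peak there (x axis), with short black marks for all regions of the same day 4 DMSO list. In the last class the TET1-only bar stands at 3.15% and the TET3-only bar at 0.344%, all below marks of 9.07% to 9.68%.

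Day 0 is the start of neural induction, and the sets differed in each TET list of that day. In the day 0 DMSO TET3 list a peak was present at 10.8% of TET1-only (10.3 to 11.2), 5.24% of TET2-only (4.86 to 5.64) and 3.11% of TET3-only regions (2.78 to 3.48). In the day 0 DMSO TET1 list the shares were 4.14%, 1.15% and 0.459%, and in the TET2 list 1.76%, 0.262% and 0.0939%. The same members moved by 10 kb gave 0.514%, 0.516% and 0.553% in the TET1 list and 0.150%, 0.183% and 0.177% in the TET2 list, so TET3-only regions met both lists no more often than their moved copies, and TET2-only regions met the TET2 list at close to that level. Under BPK25 on day 0 they were 17.2%, 10.4% and 7.03% in the TET1 list, 9.80%, 5.17% and 3.44% in the TET2 list, and 5.60%, 2.254% and 1.34% in the TET3 list. In all 6 day 0 TET lists the order was TET1-only, TET2-only, TET3-only, with intervals apart at each step.

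The whole day 4 lists had the same order at day 0, so the order by itself is not particular to the single-TET regions. Of all TET1, TET2 and TET3 regions 9.28%, 6.8% and 5.01% had a peak in the day 0 DMSO TET3 list, 3.97%, 2.74% and 1.88% in the TET1 list, and 1.45%, 0.816% and 0.402% in the TET2 list. Set against these, the TET1-only members were at or above their list, and the TET2-only and TET3-only members below theirs. For TET1-only this rests in part on few members: at a local background below 3 fragments, which is 94.8% of the set, the shares were 1.26% in the TET1 list, 0.197% in the TET2 list and 7.22% in the TET3 list, beside 1.47%, 0.196% and 6.27% of such regions of the whole TET1 list. With BPK25 on day 0 the TET1 list held 16.1%, 12.9% and 10.9%, the TET2 list 10.3%, 8.39% and 7.1%, and the TET3 list 5.46%, 4.05% and 3.13% of all regions, where TET1-only members were below their list for TET2 and above it for TET1 and TET3. Over the 6 day 0 TET lists together, 23.8% of TET1-only members (23.2 to 24.4) had a peak beside 23.7% of the TET1 list. The shares were 16.0% of TET2-only members beside 20.1% of the TET2 list and 11.1% of TET3-only members beside 17.3% of the TET3 list. In every other group of lists counted here, the TET1-only set lay below its own list.

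Day 9 did not keep that order. In the day 9 DMSO TET1 list the shares were 6.21% of TET1-only, 6.60% of TET2-only and 8.14% of TET3-only regions, and in the day 9 DMSO TET3 list 5.70%, 7.37% and 9.41%, so TET3-only was highest in both with its interval apart from TET1-only. The day 9 DMSO TET2 list gave 3.84%, 3.59% and 3.89%, whose intervals overlapped. All regions of the TET1, TET2 and TET3 lists reached 23.3%, 26.6% and 29.5% in the day 9 DMSO TET1 list, 14.3%, 16.1% and 17.3% in the TET2 list and 24.5%, 29% and 32.3% in the TET3 list. The sets lay far below their lists in all 3, and were ordered as their lists were in the TET1 and TET3 lists but not in the TET2 list. Over the 6 day 9 TET lists, DMSO and BPK25, 22.5%, 20.6% and 21.95% of the sets had a peak, beside 45%, 48.1% and 51% of the lists.

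In day 4 cells given BPK25, the lists of different TET proteins met the sets in different order. The TET1 list had a peak at 22.2% of TET1-only, 16.7% of TET2-only and 14.1% of TET3-only regions, beside 32.8%, 31.9% and 31.5% of all regions. The TET2 list had one at 5.23%, 2.38% and 1.51%, beside 6.23%, 5.19% and 4.69%. The TET3 list ran the other way, with 2.54%, 3.46% and 5.72%, beside 13.3%, 16% and 18.8%. All 9 of these set shares were below those of the whole lists. On day 9 under BPK25 the TET1 list had a peak at 11.6%, 7.43% and 5.77% of the sets, beside 13.3%, 11.6% and 10.6% of all regions. The TET2 list had one at 0.348%, 0.429% and 0.563%, beside 2.64%, 3.21% and 3.59%, and the TET3 list, the shortest of the series, at 0.0830%, 0.0556% and 0.0417%, beside 0.526%, 0.565% and 0.643%.

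**Figure D3:**
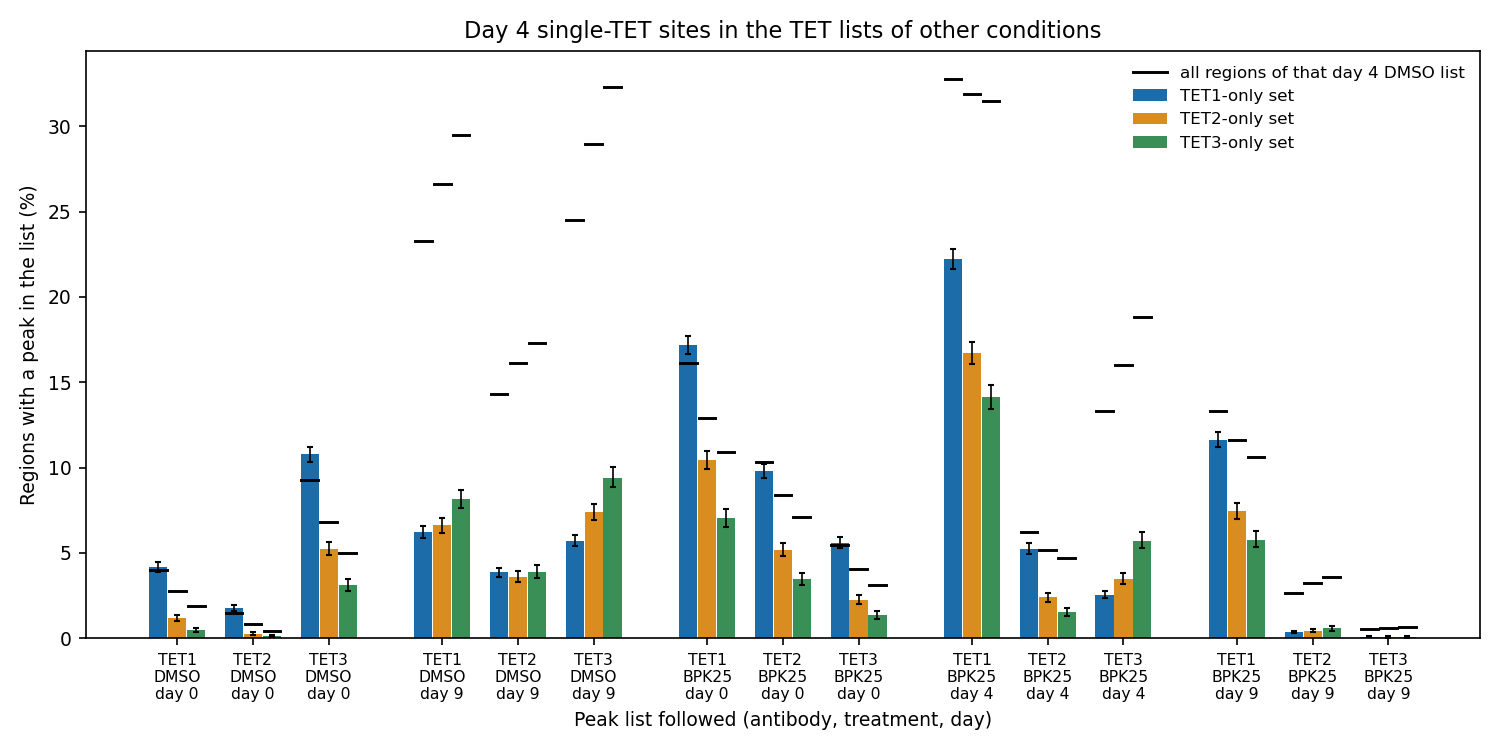
Percentage of each single-TET set with a peak (bars, y axis) in the 15 TET lists of the other 5 conditions (x axis), with Wilson 95% intervals of counting error and black marks for all regions of the same day 4 DMSO list. On day 0 the TET1-only bars are the tallest of each list (10.8% in the DMSO TET3 list) and close to their marks, while on day 9 with DMSO the bars reach 9.41% at most with marks up to 32.3%.

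The untreated day 4 cells offered MBD3 and CTCF lists that the rule had not used. An MBD3 peak was present there at 10.8% of TET1-only (10.4 to 11.3), 13.7% of TET2-only (13.1 to 14.3) and 18.5% of TET3-only regions (17.8 to 19.3), although none overlapped MBD3 in the DMSO cells of the same day. A CTCF peak was present at 1.81%, 2.83% and 3.83%. The whole TET lists reached 36.4%, 42.6% and 48.6% for MBD3 and 11.3%, 13.9% and 16% for CTCF. TET3-only regions thus met MBD3 of untreated cells more often than TET1-only regions did, in the same order as the lists they came from.

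In the other CTCF and MBD3 lists the members were rare. On day 0 the CTCF lists had a peak at 0.456%, 0.111% and 0.0626% of the 3 sets in WT cells (all regions 0.606%, 0.48% and 0.371%), at 0.539%, 0.0635% and 0.0313% with DMSO (all regions 0.624%, 0.439% and 0.263%) and at 0.762%, 0.206% and 0.0835% with BPK25 (all regions 1.51%, 1.45% and 1.28%). For MBD3 on day 0 the values were 0.778%, 0.897% and 1.10% in WT cells (all regions 7.29%, 8.62% and 9.99%), 0.415%, 0.190% and 0.240% with DMSO (all regions 3.63%, 4.04% and 4.63%) and 0.0571%, 0.0159% and 0.0209% with BPK25 (all regions 0.431%, 0.516% and 0.51%). Moved by 10 kb, TET2-only and TET3-only members gave 0.254% and 0.240% in the DMSO MBD3 list and 0.0238% and 0.0209% in the BPK25 MBD3 list, no less than in place. TET3-only members moved by 10 kb gave 0.0626% in the DMSO CTCF list, above their share in place. The other day 0 shares given here were above those of the moved copies. By the shares of all regions, TET1-only regions in the day 0 DMSO CTCF list were near the level of their own list. In the WT CTCF list they were below it, at 0.456% (0.371 to 0.562) beside 0.606%. The other sets were below their lists in both. With DMSO the TET1-only share rested on few members. Of the 104 found, 76 had a local background of at least 3 fragments, and for 22 it was not recovered. Below 3 the share was 0.0328%, beside 0.0557% of such regions of the TET1 list.

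On day 4 with BPK25 a CTCF peak was present at 1.16%, 1.87% and 2.92% of the sets (all regions 8.02%, 10.2% and 11.7%) and an MBD3 peak at 1.72%, 1.48% and 1.64% (all regions 4.19%, 4.53% and 4.82%). On day 9 the CTCF lists gave 1.67%, 2.39% and 3.16% in WT cells (all regions 7.66%, 9.25% and 10.6%), 1.74%, 1.63% and 1.75% with DMSO (all regions 8.13%, 9.27% and 9.92%) and 0.140%, 0.294% and 0.240% with BPK25 (all regions 1.5%, 1.98% and 1.98%). The MBD3 lists of day 9 gave 1.33%, 1.18% and 1.15% in WT cells (all regions 2.54%, 2.78% and 2.82%), 3.19%, 1.98% and 1.85% with DMSO (all regions 5.71%, 5.69% and 5.72%) and 10.1%, 7.23% and 6.45% with BPK25 (all regions 15.2%, 14.9% and 14.5%). In the day 9 BPK25 MBD3 list the TET1-only interval of 9.73 to 10.6 lay above those of the other sets. The shares of all regions ran in the same order there. Moved by 10 kb, the sets gave lower shares in each list of this paragraph, but some were close. In the day 9 DMSO MBD3 list TET2-only gave 1.75% and TET3-only 1.63%. In the day 9 BPK25 CTCF list TET1-only gave 0.124% and TET3-only 0.198%.

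Over all 31 lists, TET1-only lay above TET3-only with intervals apart in 14, TET3-only above TET1-only in 7, and the intervals overlapped in 10. The 7 lists with TET3-only higher were the day 4 WT lists of CTCF and MBD3, the day 4 BPK25 lists of CTCF and TET3, the day 9 DMSO lists of TET1 and TET3, and the day 9 WT CTCF list. None of the 12 day 0 lists was among them, and 9 of those 12 had TET1-only higher.

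The next comparison asked whether a set was met more often by the antibody that had defined it. The share of each set with a peak in any of the 5 other lists of its own antibody was 37.3% for TET1-only (36.6 to 38.0), 10.1% for TET2-only (9.63 to 10.7) and 17.6% for TET3-only (16.9 to 18.4), beside 52.7%, 25.3% and 44.5% of all regions of the lists. Those lists differ in length, and without the TET1 BPK25 lists of days 0 and 4, the longest of the series, the TET1-only share was 18.2%. A peak in all 5 lists of the same antibody was present at 24 TET1-only regions, 1 TET2-only region and no TET3-only region. The TET3-only set reached 3 of 5 lists at most, in 6 regions.

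Within a list the 3 sets meet the same list length, so the excess of the own set over the mean of the other sets was taken in each of the 15 TET lists of the 5 other conditions. The 3 lists of a condition differ in length, and permuting their labels does not hold length fixed. With BPK25 the TET1 list was the longest TET list of each day, at 72148, 84203 and 43694 regions on days 0, 4 and 9. The mean excess was 1.14 percentage points (exact two-sided permutation of the antibody labels within condition, p = 0.0433 over 7776 orders, the smallest possible being 0.000129). It did not pass the test at equal list length or on the log2 ratio, as given below. The excess in points was carried by TET1. The TET1-only set exceeded the others in TET1 lists by 4.50 ± 3.70 points (SD over 5 lists) and was the highest set in 4 of these 5 lists. The TET2-only set was lower than the others in TET2 lists, at −0.683 ± 0.567 points, and was the highest set in none of the 15 lists. For TET3 the excess was −0.384 ± 3.38 points, from −4.90 in the day 0 DMSO list to 2.88 in the day 9 DMSO list.

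The set of the list's own antibody was highest in 6 of the 15 lists, whereas TET1-only was highest in 10 whatever the antibody and TET3-only in 5. By condition the mean excess was −0.742 points in day 0 DMSO, 0.481 in day 9 DMSO, and 1.47, 2.85 and 1.66 in BPK25 cells of days 0, 4 and 9. In the DMSO lists alone it was −0.130 (exact p = 0.806, smallest possible 0.0278), and in the BPK25 lists alone 1.99 (exact p = 0.00926). Leaving out the day 9 DMSO lists, or the BPK25 lists of day 0, 4 or 9, gave 1.31, 1.06, 0.716 and 1.01 points with exact p of 0.0633, 0.124, 0.191 and 0.127, and cutting the 3 lists of a condition to equal length gave 0.424 points (exact p = 0.149). On the log2 ratio of shares the excess over all 5 conditions was 0.10 (exact p = 0.542). The mean excess was thus above 0 for TET1 alone of the 3 antibodies. In the DMSO lists, at equal list length and on the log2 ratio it did not pass the test.

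A small group of members of each set had a local background well above the rest. The local background is the number of fragments that the peak caller set against a summit, and its median was 1.19 in TET1-only, 1.11 in TET2-only and 1.71 in TET3-only members. It was at least 3 in 872 TET1-only members, or 4.52% of the set, in 159 TET2-only members (1.26%) and in 512 TET3-only members (5.34%). Among regions with a −log10 p of at most 12, for which alone the background was recovered, 62.5% of those in the TET1 list with a background of 6 or more were TET1-only, against 16.2% in the TET2 list and 11.2% in the TET3 list. That limit left out 1915 TET1 regions, 124 of them TET1-only.

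TET1-only members of high background were found again at day 0 far more often than those of lower background. Of the 319 TET1-only members with a background of 6 or more, 99.7% had a peak in another list, at a median of 10 lists. A peak in the day 0 DMSO lists was present at 91.2% of them for TET1 (87.6 to 93.9), 60.5% for TET2, 96.2% for TET3 and 21.0% for CTCF, beside 83.7%, 55.9%, 90.4% and 22.5% of all TET1-list regions with such a background. In day 4 BPK25 cells 93.7% had a TET1 peak and 78.7% a TET2 peak, beside 92.9% and 74.1% of those regions, whereas none had a TET3 peak (2.55% of those regions) and 0.627% had an MBD3 peak in day 4 WT cells (7.45%). The day 9 DMSO lists of TET1, TET2 and TET3 had a peak at 4.08%, 10.7% and 3.45%, beside 14.3%, 23.1% and 12.0% of those regions. With BPK25 the shares were 95.6%, 95.3% and 89.0% for TET1, TET2 and TET3 on day 0, beside 92.0%, 90.6% and 84.3% of those regions. On day 9 with BPK25 they were 88.1%, 1.57% and 0.627%, beside 86.1%, 2.75% and 1.76%. Recurrence in the day 0 TET lists was thus high over all TET1-list regions of high local background, and not for the TET1-only members alone.

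Among the 18283 TET1-only members with a background below 3, 1.26% had a day 0 DMSO TET1 peak, 0.197% a TET2 peak and 7.22% a TET3 peak, beside 1.47%, 0.196% and 6.27% of all TET1-list regions below 3. For the 9031 such TET3-only members the shares were 0.310%, 0.0221% and 2.44%, beside 0.879%, 0.0759% and 3.43% of all TET3-list regions below 3. For the 12400 such TET2-only members they were 0.718%, 0.0968% and 4.62%, beside 1.41%, 0.163% and 5.202% of all TET2-list regions below 3. Both sets lay below their lists, but in the day 0 DMSO TET2 list their intervals reached the shares of the lists. The order of the sets was the same as before in these 3 lists, at a lower level. Of the 798 TET1-only regions found in the day 0 DMSO TET1 list, 524 (65.7%) had a background of at least 3, and of the 339 found in the TET2 list 272 (80.2%) did. In the TET3 list this held for 33.9% of 2077 regions. What sets the local background at these regions was not tested.

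**Figure D4:**
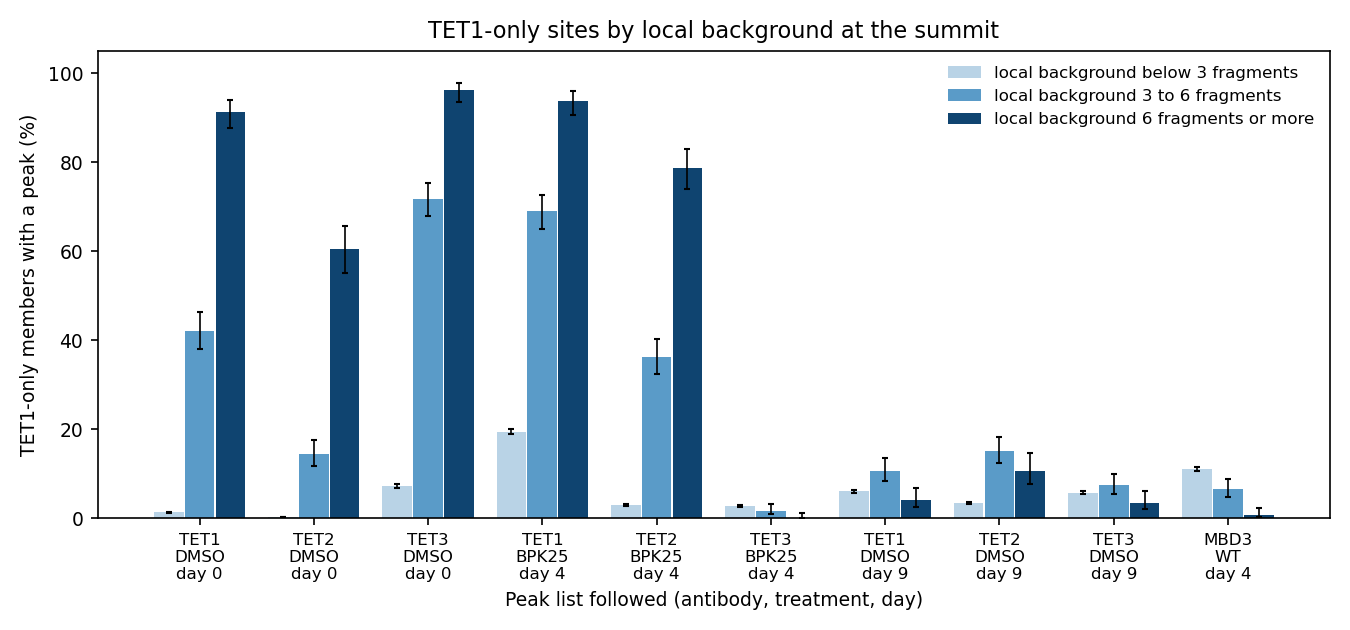
Percentage of TET1-only members with a peak (y axis) in 10 lists (x axis), split by the local background at the day 4 summit (3 shades), with Wilson 95% intervals of counting error. The darkest bars, 6 fragments or more, reach 91.2% in the day 0 DMSO TET1 list and 93.7% in the day 4 BPK25 TET1 list but 0.627% in the day 4 WT MBD3 list.

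TET1-only regions found again on day 0 and on day 9 differed in coverage and in the lists that held them, as a description with no test, since the groups were picked after their values were seen. The 798 with a day 0 DMSO TET1 peak had a median of 18 fragments and a background of 5.02. Of these, 86.6% also had a day 0 DMSO TET3 peak (10.8% of all TET1-only members), 83.8% a TET1 peak in day 0 BPK25 cells (17.2%) and 83.3% one in day 4 BPK25 cells (22.2%). A day 9 DMSO TET1 peak was present at 7.27% (6.21% of all TET1-only members) and a day 4 WT MBD3 peak at 1.50% (10.8%). The 1198 with a day 9 DMSO TET1 peak had a median of 9 fragments and a background of 1.19. Of these, 28.5% also had a day 9 DMSO TET3 peak (5.70% of all TET1-only members), 27.7% a day 4 WT MBD3 peak (10.8%) and 4.84% a day 0 DMSO TET1 peak (4.14%). Each group thus met the TET1 list of the other day slightly more often than the whole set did. The regions shared with day 0 were thus the better covered. Those shared with day 9 met day 4 MBD3 of untreated cells more often than those shared with day 0. They remained below the 36.4% of all TET1 regions.

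The TET2-only regions divided alike on a smaller scale. Only 33 had a day 0 DMSO TET2 peak, at a median of 16 fragments. Of them 28 also had a day 0 DMSO TET3 peak and none a day 4 WT MBD3 peak (5.24% and 13.7% of all TET2-only members). The 452 with a day 9 DMSO TET2 peak had a median of 8 fragments, and 24.1% of these had a day 4 WT MBD3 peak. Of the 548 TET3-only regions with a day 4 BPK25 TET3 peak, 42.3% had a day 4 WT MBD3 peak and 0.182% a day 0 DMSO TET3 peak (18.5% and 3.11% of all TET3-only members). Of the 902 with a day 9 DMSO TET3 peak, 35.6% had a day 4 WT MBD3 peak and 27.1% a day 9 DMSO TET1 peak (18.5% and 8.14% of all TET3-only members). These MBD3 shares were all below those of the whole lists, 42.6% of all TET2 and 48.6% of all TET3 regions.

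Single regions show these patterns. The 3 members of highest −log10 q and the 3 members found in most lists of the same antibody were taken from each set, with fold and −log10 q as the authors deposited them. The highest TET1-only regions, chr2:92269423-92269581 and chr10:42388299-42388461, lie beside the centromeres of their chromosomes. The first had a day 4 DMSO TET1 fold of 2.15 at a −log10 q of 277, and a peak in 20 of the 31 other lists, among them day 0 DMSO folds of 7.96 for TET1, 9.12 for TET2, 7.09 for TET3 and 4.94 for CTCF. The second had a fold of 1.93 at a −log10 q of 219 and a peak in 22 lists, with day 0 DMSO folds of 8.49, 10.1 and 4.88 for TET1, TET2 and TET3. A high −log10 q at a low fold marks a summit with very many fragments, and both regions were below the median fold of their set.

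The third, chr12:2365039-2365198, was also the first by recurrence. Its TET1 fold was 3.02 at day 4 with DMSO, 5.91 and 4.75 at day 0 with DMSO and BPK25, 3.32 at day 4 with BPK25, and 5.13 and 3.70 at day 9 with DMSO and BPK25. The nearest other day 4 DMSO peak was 10657 bp away. The region was thus a TET1 peak in every condition, and a peak in 19 of the 31 lists. The next by recurrence were chr2:121149028-121149346, with a fold of 3.03 and peaks in 21 lists, and chr18:77379915-77380639, with a fold of 2.47 and peaks in 16 lists. Both had a peak in all 5 other TET1 lists and in both day 0 TET2 lists and both day 0 TET3 lists.

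The strongest TET2-only regions recurred less. On chr10:3453368-3453542 the day 4 DMSO TET2 fold was 8.91 at a −log10 q of 12.6, and the other peak there was day 4 WT CTCF, at a fold of 5.69. At chr1:32826917-32827216 the fold was 8.82, another day 4 DMSO peak stood 337 bp away, and 6 other lists had a peak, none with a fold above 4.77. The region of highest −log10 q, at 68255 to 68410 of the unlocalised sequence 4_gl000193_random, had a fold of 3.63 and day 0 DMSO folds of 6.35 for TET1 and 11.02 for TET3. The most recurrent, chr20:62718673-62718870, had 19 fragments over a background of 6.56 at day 4 and a fold of 2.65. Its TET2 folds elsewhere were 5.99 at day 0 with DMSO, 5.50 at day 4 with BPK25, 2.57 at day 9 with DMSO and 2.77 at day 9 with BPK25, and it had a peak in 17 lists. Chr3:72386353-72386539 and chr12:130527254-130527526, with folds of 3.41 and 5.83, had a peak in 4 and 3 of the 5 other TET2 lists, and in both day 0 lists of TET1 and TET3.

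The strongest TET3-only regions were near other peaks and turned up with other antibodies. Chr18:74679034-74679198, with a day 4 DMSO TET3 fold of 5.46, lay 121 bp from another day 4 DMSO peak and had day 9 DMSO folds of 5.58 for CTCF, 8.71 for MBD3, 5.50 for TET1 and 4.67 for TET2, but no other TET3 peak. Chr1:204476083-204476582, at a fold of 7.94, had a peak in the day 4 WT MBD3 list alone, at 4.28. Chr19:1239741-1240037, at a fold of 6.80, had a day 9 DMSO TET3 fold of 4.05. By recurrence the set was led by chr4:1039134-1039360, chr20:43726782-43727099 and chr9:116502513-116502817, with folds of 4.58, 4.60 and 4.10 on 13, 11 and 14 fragments. Each of these had a TET3 peak at day 0 with DMSO, day 0 with BPK25 and day 9 with DMSO, and none at day 4 or 9 with BPK25.

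**Figure D5:**
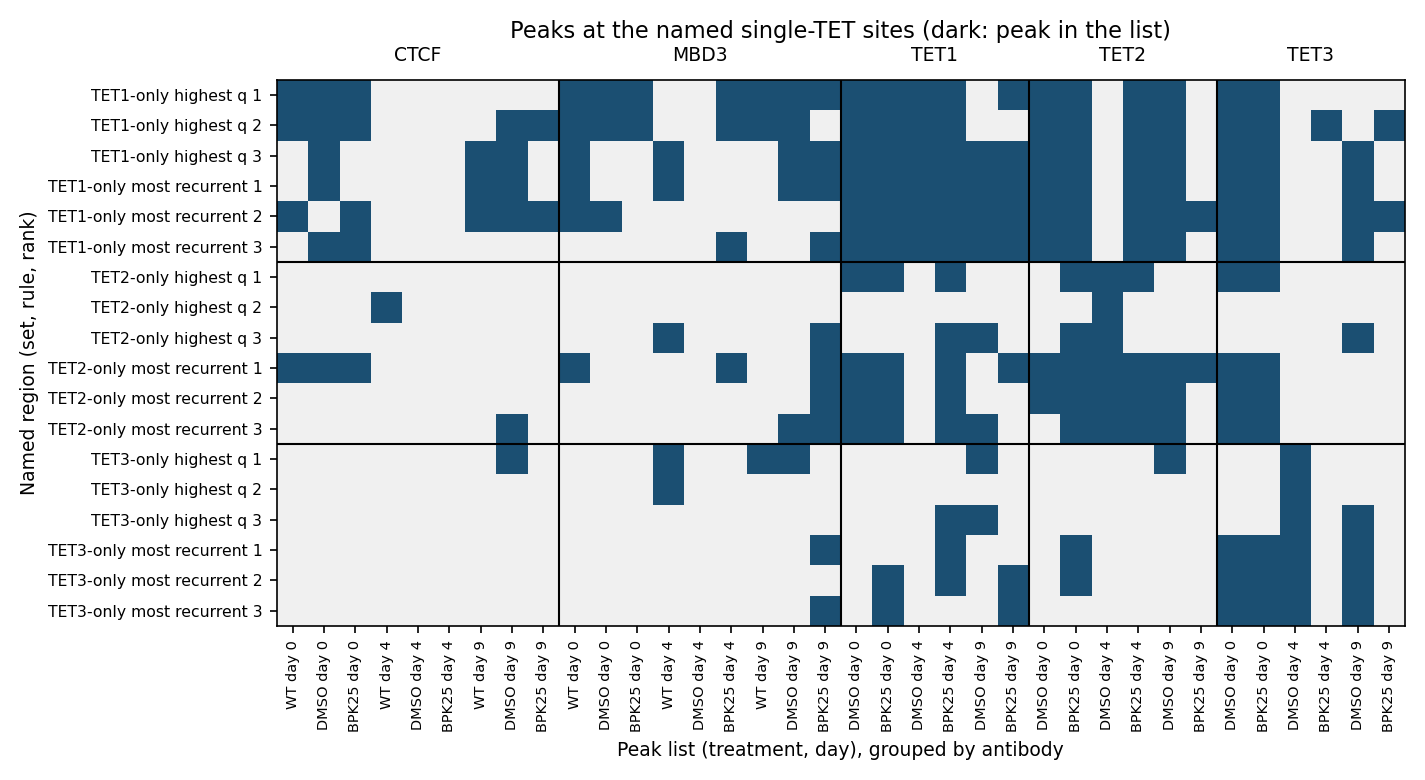
Presence (dark) or absence (light) of a peak at each named region (rows, by set, rule and rank) in each of the 36 lists (columns, by antibody, then day and treatment). The TET1-only regions are dark in 16 to 22 lists other than their own and in all day 0 TET lists, while the 3 strongest TET3-only regions are dark in 6, 1 and 3.

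Along the genome the members were spread much as their lists were, with lower shares on chromosomes 1 and 19. Chromosome 1 held 17.0% of the TET1 list and 13.2% of the TET1-only set, 17.7% and 13.3% for TET2, and 20.7% and 18.7% for TET3. Chromosome 19 held 4.60%, 4.79% and 4.78% of the lists and 3.59%, 3.60% and 3.47% of the sets. On chromosome X 52.4% of TET1 regions were TET1-only (47.8 to 56.8), 41.7% of TET2 regions were TET2-only and 30.1% of TET3 regions were TET3-only. Over all chromosomes these shares were 42.8%, 34.4% and 28.9%. Chromosome X was not alone, since chromosomes 21 and 18 had 53.5% and 51.6% for TET1. On chromosome Y 26 of 35 TET1 regions, 4 of 14 TET2 regions and 5 of 12 TET3 regions were members. Members also lay near each other, with a member of the same set within 10 kb of 39.2%, 29.1% and 24.6% of TET1-only, TET2-only and TET3-only regions. The order is that of the set sizes, and closeness beyond the density of members was not tested. The window of 1 Mb from 3000001 to 4000000 of chromosome 1 held 62 TET1-only, 45 TET2-only and 43 TET3-only members, of 185, 171 and 156 regions of the 3 lists. The share of peaks on chromosome 1 varied between 8.40% and 25.2% over the 36 lists, and its part in these values was not tested beyond leaving it out, which kept the same-antibody excess at 1.17 points (exact permutation p = 0.0392).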

How the data were processed

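The titles gave each sample its day, treatment and antibody. Per the labels, each deposited list was called on 3 pooled replicates. The submitters' processing notes name build hg19 and, with no roles, MACS2 2.1.2, bedtools 2.25.0, SAMtools 1.9, FastQC 0.11.7 and Bowtie2 2.3.4. The input used as control is not given in the sources used here. The authors deposited 4 values for a peak: a score (not used here), a fold enrichment over local background, which is a ratio, and p and q as −log10, no q being above 0.05. Such values belong to single peaks and serve here to describe or rank peaks inside 1 list.

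An interval with several summits was counted as 1 region and took its highest −log10 q. An overlap of 1 bp made regions shared, which was checked against bedtools 2.31.1. For a share with a peak in the followed lists, the background was the same regions moved by 10 kb. The share of all regions of the day 4 DMSO list was set beside it. Distances between regions had no such background. Fragments and local background at a summit were solved from fold and p under a Poisson law for −log10 p up to 12, within 0.01. Shares carry Wilson 95% intervals. The same-antibody excess was tested with an exact permutation over lists; no p-value across peaks was computed. Intervals called apart do not overlap. Computing used scipy 1.17.1, pandas 2.3.3, numpy 2.4.6 and matplotlib 3.10.9 under Python 3.11.15, and was tested on simulated data.

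The members, the alternatives and the comparisons were chosen with earlier results of these data known. Named regions were, per set, the 3 members of highest −log10 q and the 3 with peaks in most of the 5 other lists of the same antibody, ties going to the higher −log10 q. Alternatives were other thresholds on −log10 q and fold, reciprocal overlap of 50%, windows of 500 bp and 5 kb, removal of members with day 4 WT peaks, lists of equal length, chromosomes 1 to 22 and X, the stronger members of a set, removal of regions with peaks in at least 18 lists, a ratio statistic and leaving out conditions. Sequence features, promoters and gene lists need a genome of build hg19 and were not analysed here.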

Additional observations from a re-analysis of the deposited data

Results flagged for a closer look

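The order of the sets turned between day 0 and day 9 in the DMSO lists. TET1-only minus TET3-only averaged 4.34 percentage points over the 3 day 0 DMSO TET lists (1.66 to 7.66) and −1.90 points over the 3 day 9 DMSO TET lists (−3.72 to −0.0483), so every list of one day lay on the opposite side from every list of the other. TET2-only minus TET3-only behaved alike, at 0.996 points on day 0 (0.168 to 2.13) and −1.30 points on day 9 (−2.05 to −0.304). Neither difference between days was tested, with 1 pooled list per antibody and day. In the day 9 DMSO TET2 list, which gave the values nearest 0 on that day, the intervals of the sets overlapped. All regions of the day 4 lists changed sides between the days in the same way: all TET1 minus all TET3 regions gave 2.09, 1.05 and 4.27 points in the day 0 DMSO lists of TET1, TET2 and TET3, and −6.2, −3.0 and −7.8 points in those of day 9.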

How the results depend on the processing

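No list carries a replicate error or a stated depth, and fragments at a summit were few. Whether weak peaks of another antibody were missed at a member, and how many, was not tested. No paired analysis was possible because the 3 replicates are pooled in each list. Values are given for TET1-only, TET2-only and TET3-only in that order; the cause of a move was not tested unless the alternative itself sets it, as fewer peaks or members do. The order between TET1-only and TET3-only was followed in the 31 lists under the alternatives that filter or redefine regions. No list whose intervals had been apart turned its order. A turn in a list with overlapping intervals was not counted. A separation of the intervals was lost in 5 lists and gained in 1 at a fold of at least 4. It was lost in 3 and gained in 3 at a −log10 q of at least 5. At a local background below 3 it was lost in 3 and gained in 2. Not run were the count within 1 kb under the 5 kb window, where it is 0 by construction, and the sequence features.

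With only peaks of −log10 q at least 3, the sets held 8778, 5258 and 5590 members, of which 49.7%, 47.8% and 49.1% had a peak in any other list, 29.5%, 6.92% and 15.9% in another list of the same antibody, and 26.8%, 32.6% and 34.3% had another day 4 DMSO peak within 1 kb. At −log10 q of at least 5 these were 3248, 1961 and 2845 members, 42.9%, 41.3% and 39.4%, 22.4%, 4.64% and 11.1%, and 19.3%, 21.6% and 20.2%. At a fold of at least 4 they were 11506, 7373 and 5744 members, 40.2%, 38.3% and 41.2%, 20.2%, 7.27% and 12.7%, and 29.2%, 34.7% and 37.8%. With reciprocal overlap of 50% the TET3-only set grew to 15597 members, and the shares were 45.4%, 43.5% and 44.7% in any list, 26.2%, 7.68% and 13.6% in the same antibody and 50.1%, 59.1% and 66.5% within 1 kb. Counting peaks within 500 bp as shared gave 65.7%, 62.0% and 64.8%, then 46.6%, 13.5% and 21.8%, then 14.7%, 16.8% and 19.8%. Members with no other day 4 DMSO peak within 5 kb numbered 7747, 4313 and 2906, with 49.9%, 44.7% and 47.4% in any list and 34.4%, 8.44% and 13.5% in the same antibody.

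Without members at day 4 WT peaks, which counted as found by construction, the shares in any list were 49.9%, 43.7% and 43.3%, the TET3-only share in the same antibody 14.8%, and the shares within 1 kb 30.5%, 36.5% and 43.9%. With day 4 lists of equal length the TET1-only set held 12196 members, and the shares were 59.0%, 54.5% and 56.6%, then 39.5%, 10.7% and 18.5%, then 34.3%, 38.0% and 43.0%. Members at or above the median −log10 q of their set numbered 9652, 7930 and 4804, with 60.6%, 54.0% and 59.1% in any list, 41.1% and 20.6% of TET1-only and TET3-only in the same antibody, and 35.5% and 40.7% of TET1-only and TET2-only within 1 kb. Counting every summit moved the TET3-only median −log10 q from 2.59 to 2.60.

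The same-antibody excess of 1.14 points (exact permutation p = 0.0433) was −0.130 in the DMSO lists (p = 0.806), a turn of sign. By the same exact permutation test it was no longer past 0.05 at 0.996 points with −log10 q at least 3 (p = 0.0683), 0.993 at least 5 (p = 0.0619), 0.522 with fold at least 4 (p = 0.0999), 0.582 with reciprocal overlap (p = 0.0631), 1.09 without day 4 WT peaks (p = 0.0512) and 0.424 with lists of equal length in a condition (p = 0.149). The same exact test gave 0.10 on the log2 ratio (p = 0.542), 1.31 without day 9 DMSO (p = 0.0633), and 1.06, 0.716 and 1.01 without day 0, 4 or 9 BPK25 (p = 0.124, 0.191 and 0.127).

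Alternatives chosen after seeing the data left out chromosome 1, the weakly covered members, the high local backgrounds or the TET1 BPK25 lists of days 0 and 4. Members with at least 10 fragments numbered 5213, 2484 and 6137, with 71.8%, 65.4% and 59.5% in any list and 54.9%, 17.5% and 20.4% in the same antibody. With a local background below 3 the shares were 53.6% of TET1-only and 53.6% of TET3-only in any list and 34.5%, 9.35% and 16.6% in the same antibody. Without the TET1 BPK25 lists they were 46.5%, 44.4% and 48.3% in any list and 18.2% of TET1-only in the same antibody.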
